A study of Homo sapiens with 9 samples.

Results

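The genes described here are XPO5 and 9 other genes of microRNA processing: DROSHA, DGCR8, DICER1, AGO1, AGO2, AGO3, TARBP2, PRKRA and LIN28B. XPO5 was chosen because its level differed between bone marrow and lung metastases in these same libraries. The other 9 were chosen by function, to ask whether they follow it, but with earlier results of these data known. All 10 symbols were found among 34830 gene rows, and all 10 passed the filter on low counts, as did 17042 genes in all. Each of 9 libraries held RNA of the human Ewing sarcoma line TC71, recovered by flow cytometry from NSG mice, which lack T, B and natural killer cells. Every mouse carried a flank tumour grown from 100 cells placed under the skin in diluted Matrigel, and cells were taken when tumours measured 1.5 cm across. The groups are 4 bone marrow metastasis libraries, 4 lung metastasis libraries and 1 primary tumour library. All come from the same line and no treatment or mouse age is named. The labels do not say which libraries share a mouse, and p-values therefore cover only the spread between these samples, which may be technical.

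MicroRNAs are cut out of long transcripts in the nucleus by the Microprocessor, made of the nuclease DROSHA and its RNA-binding partner DGCR8. Exportin 5, the product of XPO5, carries the resulting hairpins through the nuclear pore together with the GTPase RAN, and DICER1 then cuts them in the cytoplasm with the help of TARBP2 or PRKRA. The mature strand is loaded into an Argonaute protein (AGO1 to AGO4), which silences matching messenger RNAs, and LIN28B blocks the maturation of let-7 microRNAs.

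Estimated counts summed to 14159456 to 17911515 in bone marrow libraries, 11550045 to 13219016 in lung libraries and 12354111 in the primary library. Reads assigned to human made up 77.6 to 79.1% in bone marrow libraries, 72.7 to 77.3% in lung libraries and 78.1% in the primary library. Those assigned to mouse made up 7.35 to 7.75% in bone marrow, 7 to 8.09% in lung and 7.45% in the primary library. Mitochondrial ribosomal RNA made up 0.0956 to 0.218% of reads in bone marrow, 0.359 to 0.491% in lung and 0.0570% in the primary library. Reads not aligned made up 18.9 to 20.3% in bone marrow, 20.4 to 24.7% in lung and 19.7% in the primary library. The sites did not overlap in either measure, nor in summed counts or human reads. Tested genes at 0 made up 6.92 to 11.6% in bone marrow, 10.4 to 14.9% in lung and 7.87% in the primary library. The part of these measures in the results was not tested. Of 10 Ewing sarcoma markers, CD99 averaged 401, 482 and 606 CPM (counts relative to library size on the CPM scale, scaled by TMM) and STEAP1 averaged 739, 995 and 905 CPM in bone marrow, lung and primary libraries. EWSR1, a partner in the usual Ewing fusion, was at 196 to 668 CPM in bone marrow, against 82.0 to 168 CPM in lung, without overlap (edgeR adjusted p = 0.350, DESeq2 adjusted p = 0.0241), and at 351 CPM in the primary library. FLI1, the other partner, was below 1 CPM in each library. Whether FLI1 reads could be assigned was not tested, and no absence of FLI1 RNA is read from these values. Summed over 10 leukocyte markers, the level was 9.71 to 238 CPM in bone marrow, 3.56 to 43.6 CPM in lung and, in the primary library, 33.5 CPM, with CSF1R at 0 throughout. Summed over 8 red cell markers, the level was 17.2 to 111 CPM in bone marrow, 3.63 to 172 CPM in lung and, in the primary library, 8.06 CPM, with ALAS2 at 0 throughout. Summed over 10 markers of lung and endothelium, the level was 592 to 2112 CPM in bone marrow, 911 to 1619 CPM in lung and, in the primary library, 1541 CPM, most of it CAV1, with SCGB1A1 at 0 throughout. Summed over 6 stromal markers, it was 88.1 to 351 CPM in bone marrow, 151 to 397 CPM in lung and, in the primary library, 282 CPM. Of 7 leukocyte markers tested, 2 were higher in bone marrow without overlap and 1 lower, where 5.88% of tested genes did not overlap. LCP1 was at 8.15 to 233 CPM in bone marrow, against 0 to 7.04 CPM in lung. LYZ was at 0.587 to 1.53 CPM in bone marrow, against 0 to 0.563 CPM in lung. CD68 was at 0 to 0.444 CPM in bone marrow, against 0.994 to 20.9 CPM in lung. The host is mouse, while these markers are counted under human gene symbols. The part of these cell types in the results was not tested.

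XPO5 (ENSG00000124571.17) lies on the minus strand of chromosome 6, from 43522330 to 43576075 in hg38, by GENCODE release 29. It was at 23.9, 65.7, 47.8 and 32.6 CPM in bone marrow replicates 1 to 4, against 0.255, 0.282, 0.745 and 0.436 CPM in lung replicates 1 to 4. The primary library held 22.7 CPM. All 4 lung libraries were thus low, all 4 bone marrow libraries were high, and the primary library lay just under the lowest bone marrow library. The lowest bone marrow library was 32.1-fold above the highest lung library. The levels averaged 42.5 ± 18.4 CPM in bone marrow, against 0.429 ± 0.225 CPM in lung (SD, n = 4 each), for a fitted log2 fold change of 6.60 ± 0.63 (SE). Because XPO5 was chosen for this difference, no test of it is given. In order of level the groups run bone marrow, primary and lung. The difference between bone marrow and the primary library, with a log2 fold change of 0.90 ± 0.82 (SE), is close to its error, and that between lung and the primary library was -5.70 ± 0.70 (SE). In bulk RNA, fewer cells expressing a gene and less of its RNA per cell cannot be told apart.

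The depth behind these levels differs greatly. Estimated XPO5 counts were 2.52 to 8.90 in the lung libraries and 296 to 1077 in the other 5 libraries. Rounded counts over the 4 lung libraries summed to 22, with an exact Poisson 95% interval of 13.8 to 33.3 that covers counting error only. Lung replicate 1 was under the 3 counts taken as the floor. With thresholds set after the values were seen, 4107 of 17042 tested genes exceeded 20 CPM in all 4 bone marrow libraries. Of these, XPO5 was the 1 gene below 1 CPM in all 4 lung libraries. In the other direction, 3687 genes exceeded 20 CPM in all 4 lung libraries and 0 of them were below 1 CPM in all 4 bone marrow libraries. XPO5 was chosen on these same values, so the counts are a description and no support.

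The start of XPO5 faces that of POLH, which encodes DNA polymerase eta and runs on the opposite strand, with 147 bases between the start sites in RefSeq. The window from 250 bases before to 50 bases after the XPO5 start is shown because the 2 genes share 246 bases of such windows, so that their levels can be read against the same DNA. It is taken from RefSeq (GRCh38.p14, minus strand, chr6:43575989-43576288), with capitals marking an ETS core (CGGAAGT) and matches to the NRF1 motif found on either strand. These matches do not overlap each other.
XPO5 promoter: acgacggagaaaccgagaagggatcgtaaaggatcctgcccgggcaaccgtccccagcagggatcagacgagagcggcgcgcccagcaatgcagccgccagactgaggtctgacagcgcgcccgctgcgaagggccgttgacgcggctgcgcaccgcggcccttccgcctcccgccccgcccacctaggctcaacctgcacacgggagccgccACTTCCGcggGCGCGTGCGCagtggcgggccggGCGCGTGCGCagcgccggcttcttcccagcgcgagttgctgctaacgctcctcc
The window is 71.7% G and C. It holds 1 ETS core, and 6.83% of 35116 RefSeq windows of this length hold at least 1. It also holds 2 NRF1 matches, where 5.78% of the windows hold at least 1. The E-box CACGTG, the CRE TGACGTCA and the repeat GGAAGGAA were not among its letters; they occur in 7.26%, 1.85% and 3.67% of the windows. The CCAAT box and the hypoxia response element core ACGTG were also absent, and they occur in 34.6% and 21.4% of the windows. Of the 10 members, 9 were matched in the RefSeq table. An NRF1 match was found in AGO1 and XPO5, while the ETS core was found in XPO5 alone. A CCAAT box was found in DROSHA, DGCR8, DICER1, AGO1, TARBP2 and PRKRA, and ACGTG in LIN28B. Whether any of these motifs plays a part in the levels was not tested.

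POLH did not share the pattern of XPO5. It was at 4.96, 0.793, 0.764 and 7.17 CPM in bone marrow and 6.45, 1.69, 2.57 and 1.96 CPM in lung, with 3.91 CPM in the primary library. The groups overlapped, and the log2 fold change for bone marrow against lung was 0.11 ± 0.89 (SE; edgeR adjusted p = 0.980). POLR1C encodes a subunit of RNA polymerases I and III, and its annotated span, on the opposite strand, overlaps that of XPO5, with 348 of 8522 exonic bases of XPO5 shared. Whether counting used strand is not stated, so reads from those shared bases cannot be told apart. POLR1C was at 118 to 293 CPM in bone marrow, 184 to 363 CPM in lung and, in the primary library, 209 CPM (log2 fold change for bone marrow against lung -0.30 ± 0.32 (SE), edgeR adjusted p = 0.786). Of the other 4 of the 3 nearest tested genes on each side, MAD2L1BP, which encodes a regulator of the spindle checkpoint protein MAD2, was at 26.9 to 55.7 CPM in bone marrow, below its 64.3 to 139 CPM in lung. The difference, -1.18 ± 0.35 (SE) on the log2 scale, did not pass the edgeR test (adjusted p = 0.398). YIPF3, LRRC73 and GTPBP2 overlapped between the sites.

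**Figure D1:**
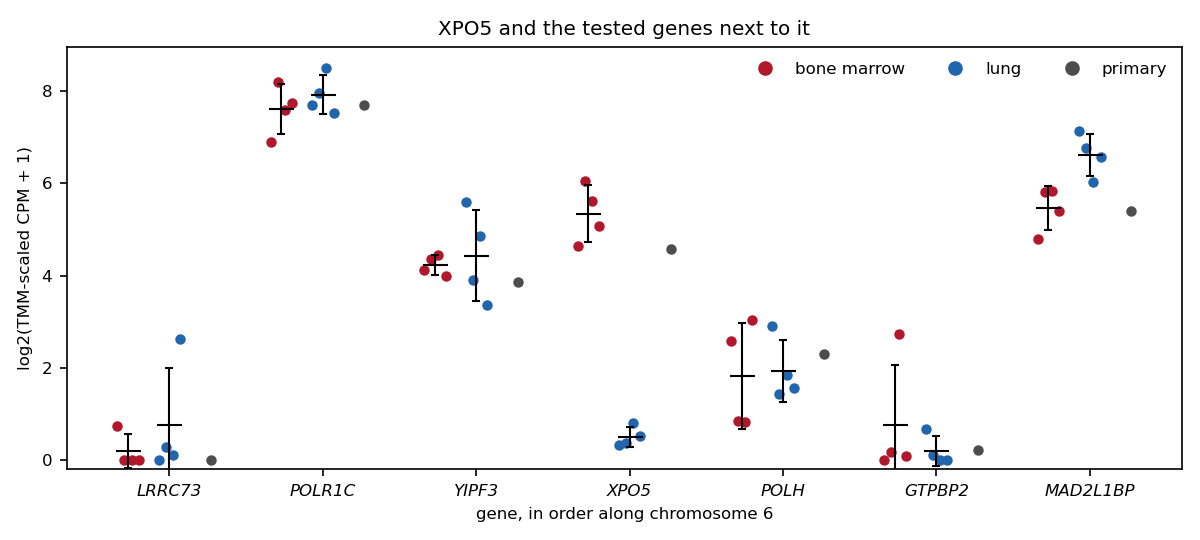
Levels of XPO5 and the 3 nearest tested genes on each side, as log2(TMM-scaled CPM + 1) on the vertical axis, in gene order along chromosome 6. Points are libraries, coloured by group, and bars give mean ± SD over the 4 libraries of a site; XPO5 alone has its lung points near 0 and its other points above 4.

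Across the other 9 members, none passed the edgeR test for bone marrow against lung, where 0.00587% of tested genes passed. For the 9 others the edgeR adjusted p ran from 0.486 to 0.894, 0 had an unadjusted p below 0.05, against 10.2% of tested genes (6.33% higher and 3.88% lower). With the other tools 2 of the 9, DICER1 and AGO1, had a p below 0.05 before adjustment, in DESeq2, where 12.2% of genes did, and in limma voom, where 11.2% did. After adjustment DESeq2 and limma voom called 0 of the 9, against 3.38% and 0.0352% of genes. DGCR8 passed the filter only through a bone marrow library and is left out of the next counts. The log2 fold change was positive for 7 of the other 8, against 49.9% of tested genes, with a median of 0.58 where the median of all tested genes was 0.00. In limma voom it was positive for 6 of the 8, with a median of 0.33. The sites overlapped for each of the 9 members other than XPO5, where 5.88% of tested genes did not overlap (2.82% higher and 3.06% lower in bone marrow).

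**Figure D2:**
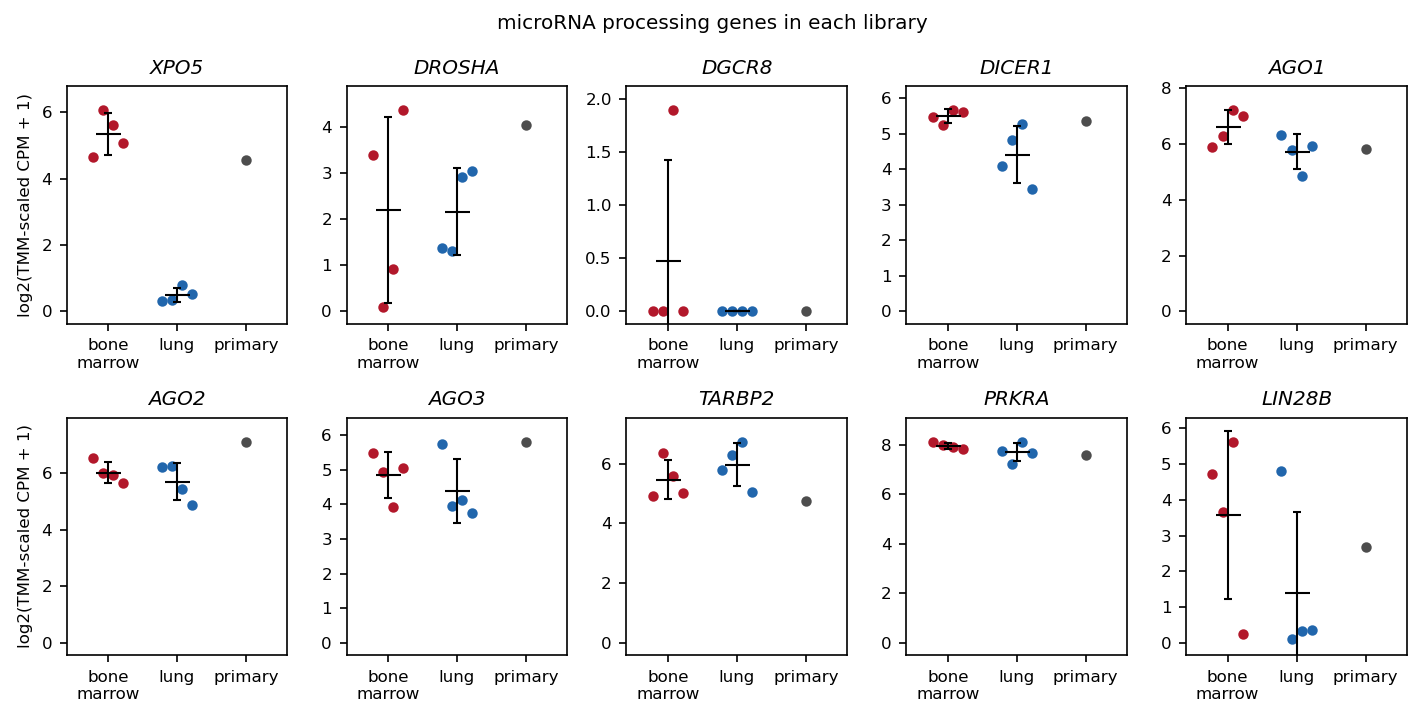
Level of each of the 10 genes as log2(TMM-scaled CPM + 1) on the vertical axis, by group on the horizontal axis, with each panel on its own scale. Points are libraries and bars give mean ± SD over 4 libraries; the sites separate for XPO5. DROSHA and LIN28B spread widely within a site, and DGCR8 is at 0 in 8 of 9 libraries.

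Of the Microprocessor, DROSHA (chromosome 5, 31400497 to 31532196, minus strand) was scattered in both sites. It was at 9.55, 0.0610, 0.903 and 19.6 CPM in bone marrow replicates 1 to 4, against 1.61, 1.48, 6.54 and 7.19 CPM in lung. The primary library held 15.3 CPM. Bone marrow thus held both the highest and the lowest library, and replicate 2 had 1 count. Its mean was 7.52 ± 9.10 CPM in bone marrow, against 4.21 ± 3.08 CPM in lung (SD, n = 4 each). The log2 fold change of 0.84 ± 1.30 (SE) did not pass (edgeR adjusted p = 0.868). Its sign turned without bone marrow replicate 4 (-0.26), in limma voom (-0.41) and in the fit blocked on replicate number (-0.65).

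DGCR8 (chromosome 22, 20080232 to 20111877, plus strand) was listed at 0 in 8 of 9 libraries. Bone marrow replicate 3 held 39.2 estimated counts, or 2.71 CPM. If its reads could be assigned, a count of 0 allows up to 0.183 to 0.254 CPM in the other libraries, taking 3 counts as the floor; whether they could was not tested. DGCR8 passed the filter through that library alone, since with 1 primary library the filter asks for enough counts in 1 library, and its fitted fold change is not given. No absence of DGCR8 RNA is read from these values. Nearby genes were counted in the same libraries: RANBP1, which helps RAN release its cargo, was at 359 to 588 CPM in bone marrow, 365 to 544 CPM in lung and, in the primary library, 672 CPM. TRMT2A, whose annotated end overlaps that of DGCR8 on the other strand, was at 0 to 2.22 CPM in bone marrow, 0 to 5.46 CPM in lung and, in the primary library, 2.07 CPM. Both neighbours were looked up after the value of DGCR8 was seen.

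DICER1 (chromosome 14, 95086228 to 95158010, minus strand) came nearest to XPO5 in its pattern. It was at 43.2, 36.5, 49.5 and 47.3 CPM in bone marrow, against 16.1, 27.1, 37.4 and 9.95 CPM in lung. The primary library held 39.7 CPM, within the bone marrow range. The sites overlapped through 2 libraries, lung replicate 3 and bone marrow replicate 2. Its mean was 44.1 ± 5.71 CPM in bone marrow, against 22.7 ± 12.1 CPM in lung (SD, n = 4 each). The log2 fold change of 0.96 ± 0.45 (SE) did not pass the edgeR test (adjusted p = 0.486), nor DESeq2 (adjusted p = 0.272) or limma voom (adjusted p = 0.336).

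The RNA-binding partners of DICER1 did not share a direction. TARBP2 (chromosome 12, 53500921 to 53506431, plus strand) was at 28.9, 80.7, 47.0 and 31.5 CPM in bone marrow, against 54.7, 77.0, 106 and 32.5 CPM in lung. Its primary level of 25.6 CPM was below each of the 8 metastasis libraries, as for 7.56% of tested genes. The sites overlapped over most of their range, with means of 47.0 ± 23.8 CPM in bone marrow, against 67.5 ± 31.3 CPM in lung (log2 fold change -0.52 ± 0.47 (SE), edgeR adjusted p = 0.728). PRKRA (chromosome 2, 178431414 to 178451512, minus strand) varied least among the 9 members detected in every library. It was at 276, 250.05, 236 and 225 CPM in bone marrow, against 216, 150.2, 278 and 200.0 CPM in lung, beside 191 CPM in the primary library. Its highest library was 1.85-fold above its lowest, against 4.12-fold for TARBP2 and 4.97-fold for DICER1. The PRKRA means of 247 ± 21.7 CPM in bone marrow, against 211 ± 52.7 CPM in lung gave a log2 fold change of 0.23 ± 0.22 (SE; edgeR adjusted p = 0.757).

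Of the 3 Argonautes, AGO1 (chromosome 1, 35869808 to 35930528, plus strand) had the largest difference between sites. It was at 58.8, 76.9, 148 and 127 CPM in bone marrow, against 80.0, 54.5, 27.8 and 60.0 CPM in lung, beside 56.4 CPM in the primary library. Bone marrow replicates 3 and 4 lay above every other library and replicates 1 and 2 within the lung range. The means were 103 ± 41.7 CPM in bone marrow, against 55.6 ± 21.5 CPM in lung, and the log2 fold change was 0.88 ± 0.41 (SE), which did not pass (edgeR adjusted p = 0.486). AGO2 (chromosome 8, 140520156 to 140635619, minus strand), the Argonaute with well-known slicing activity, was at 90.5, 62.4, 59.2 and 48.5 CPM in bone marrow, against 73.5, 73.9, 42.3 and 28.4 CPM in lung. Its primary level of 136 CPM was above all 8. AGO3 (chromosome 1, 35930718 to 36072500, plus strand) was at 43.7, 29.7, 14.2 and 31.9 CPM in bone marrow, against 52.6, 14.5, 16.6 and 12.3 CPM in lung. The AGO3 level in the primary library, 55.2 CPM, was also above all 8, and 10.1% of tested genes had their primary level above all 8. For AGO2 and AGO3 the log2 fold changes of 0.26 ± 0.38 and 0.32 ± 0.58 (SE) did not pass (edgeR adjusted p = 0.859 and 0.894). Without bone marrow replicate 1 and lung replicate 3 both turned sign, to -0.051 and -0.071. Argonaute genes are alike in sequence, and how the counting split reads among them could move their levels.

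LIN28B (chromosome 6, 104936616 to 105083332, plus strand) was either well detected or nearly absent, in both sites. It was at 25.2, 11.7, 48.2 and 0.196 CPM in bone marrow, against 26.7, 0.0704, 0.248 and 0.291 CPM in lung. The primary library held 5.37 CPM. Bone marrow replicate 4 and lung replicates 2, 3 and 4 held 1 to 4 counts, and lung replicate 1 was as high as bone marrow replicate 1. The means of 21.3 ± 20.6 CPM in bone marrow, against 6.83 ± 13.3 CPM in lung (SD, n = 4 each) gave a log2 fold change of 1.64 ± 1.83 (SE; edgeR adjusted p = 0.791). Without lung replicate 1 the log2 fold change was 6.68, and over all alternatives the adjusted p ran from 0.372 to 0.952. Of 1741 tested genes with a mean of 10 to 20 CPM over the 8 metastasis libraries, 525, or 30.2%, had a library below 1 CPM. In 8 of the 1741 at least 4 of the 8 libraries were below 1 CPM, which is 0.460%, and LIN28B is among these 8. The band and the limit were chosen after the values of LIN28B were seen.

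LIN28B binds the loop of let-7 precursors, often at a GGAG motif, and mature let-7 microRNAs share a seed through which they pair with targets. The let-7g hairpin and mature members are shown because the list of let-7 targets below rests on that seed. They are from RefSeq (GRCh38.p14), with GGAG in capitals in the hairpin and the seed, bases 2 to 8, in capitals in the mature forms.
let-7g hairpin: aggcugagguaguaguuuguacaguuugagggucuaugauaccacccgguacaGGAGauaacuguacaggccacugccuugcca
let-7a-5p: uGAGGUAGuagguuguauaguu
let-7g-5p: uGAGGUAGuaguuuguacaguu
let-7i-5p: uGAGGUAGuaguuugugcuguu
miR-98-5p: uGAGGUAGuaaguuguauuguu
The 4 mature forms share the same seed, and their levels were not measured in these libraries. Of 22 let-7 targets tested, 12 were higher in bone marrow and 10 lower, with a median log2 fold change of 0.09, which turned to -0.024 without bone marrow replicate 3, -0.16 without bone marrow replicate 4 and -0.050 without lung replicate 1. Of all tested genes, 49.9% were higher in bone marrow. For this list 0 passed in edgeR, DESeq2 or limma voom, which called 0.00587%, 3.38% and 0.0352% of their genes. At an unadjusted edgeR p below 0.05 there was 1 in each direction, against 6.33% of tested genes higher and 3.88% lower. ARID3B, a DNA-binding protein and the higher of these, was at 0.370, 5.80, 0 and 1.89 CPM in bone marrow, against 0 to 0.0828 CPM in lung. HMGA2, IGF2BP1 and LIN28A were looked up after the values of LIN28B were seen. HMGA2, a chromatin protein and well-known let-7 target, averaged 22.1 ± 10.9 CPM in bone marrow, against 22.3 ± 12.4 CPM in lung. IGF2BP1, an RNA-binding protein, averaged 43.4 ± 11.96 CPM in bone marrow, against 50.05 ± 13.9 CPM in lung. LIN28A, the paralog of LIN28B, was at 21.4 to 25.7 CPM in bone marrow, 21.97 to 31.4 CPM in lung and, in the primary library, 21.9 CPM, so it was detected at a like level where LIN28B was nearly absent.

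Per kilobase of the longest coding transcript in GENCODE, the mean level over 9 libraries was highest for PRKRA (123 CPM per kb) and TARBP2 (28.8). AGO1 (5.59), AGO2 (4.69), XPO5 (4.03), DICER1 (3.30) and LIN28B (2.38) followed on that scale, above AGO3 (1.53) and DROSHA (1.30). DGCR8, listed at 0 in 8 libraries, is not ranked. With the median coding transcript length in place of the longest, PRKRA and TARBP2 stayed first and DROSHA last, while AGO2 and AGO3 moved above AGO1.

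Likeness to XPO5 was measured as the root mean square difference in log2(CPM + 1), standardised over the 9 libraries, among 9643 other genes whose average log2 CPM was 2 or more. A value of 0 means the same pattern, and the median gene had 1.35. DICER1 ranked 435 (0.724), AGO1 1364 (0.936), LIN28B 2026 (1.03) and PRKRA 2558 (1.10). AGO2 ranked 2958 (1.15), AGO3 3171 (1.17), DROSHA 5421 (1.41) and TARBP2 7694 (1.64), and DGCR8 was below the level needed. Because XPO5 was chosen for its split by site, these ranks are a description.

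**Figure D3:**
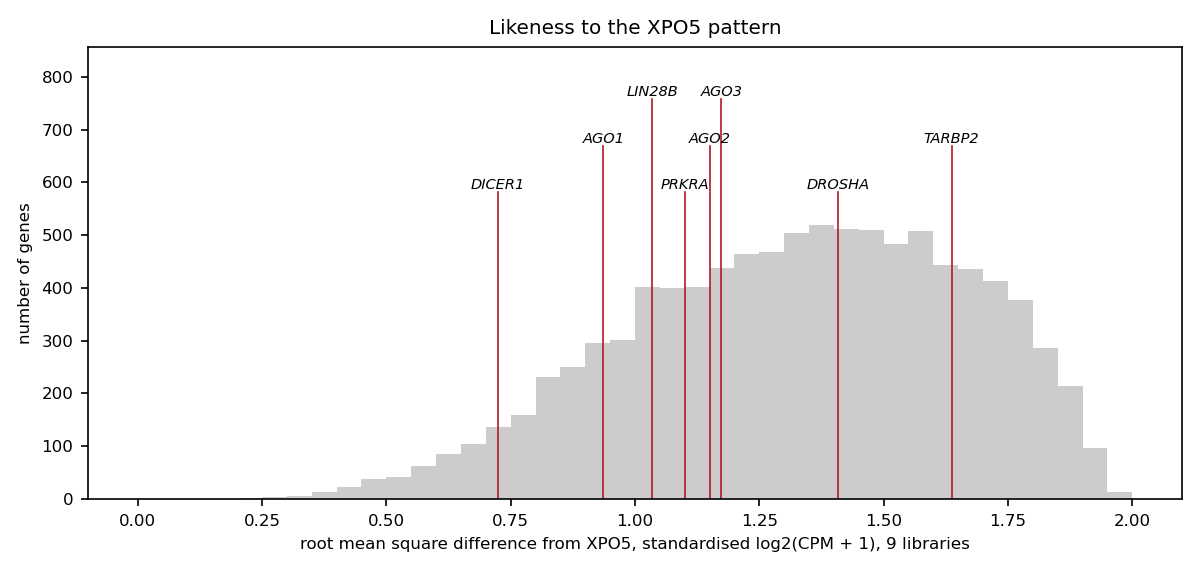
Grey bars count 9643 genes by their root mean square difference from XPO5 (horizontal axis, standardised log2(CPM + 1) over 9 libraries, lower meaning more alike). Red lines mark 8 of the other members; DICER1 lies nearest to XPO5 at 0.724 and TARBP2 farthest at 1.64.

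The 5 genes most like XPO5 were METAP1, DPY19L4, RPL36A-HNRNPH2, BCCIP and TTC30A. METAP1, a methionine aminopeptidase that trims new proteins, averaged 149 ± 8.12 CPM in bone marrow, against 98.8 ± 5.75 CPM in lung, with 129.7 CPM in the primary library. DPY19L4 averaged 152 ± 26.96 CPM in bone marrow, against 53.9 ± 3.11 CPM in lung, with 146 CPM in the primary library. RPL36A-HNRNPH2, a read-through locus whose reads can be split with its parent genes, averaged 9.27 ± 2.39 CPM in bone marrow, against 0.170 ± 0.339 CPM in lung. BCCIP, a partner of BRCA2 and the CDK inhibitor p21, averaged 474 ± 19.99 CPM in bone marrow, against 303 ± 26.8 CPM in lung. TTC30A, a component of intraflagellar transport, averaged 15.0 ± 1.64 CPM in bone marrow, against 3.63 ± 1.51 CPM in lung. Their pattern was alike by the rule that chose them, and the size of the difference varied among them. METAP1 differed far less between the sites than XPO5, while RPL36A-HNRNPH2, with a lung mean of 0.170 CPM, differed widely.

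Other export receptors were set beside XPO5. Of 13 export receptors and RAN factors, 9 were higher in bone marrow than in lung and 4 lower, where 49.9% of tested genes were higher. The median log2 fold change was 0.28, and it ran from 0.10 without lung replicate 3 to 0.56 without lung replicate 4. In edgeR 0 passed, and 2 had a p below 0.05 before adjustment, NXF1 and CSE1L, against 10.2% of tested genes. Both were called by DESeq2, which called 3.38% of its genes, and 0 factors by limma voom. NXF1, the main exporter of messenger RNA, was at 28.4, 35.0, 34.4 and 18.1 CPM in bone marrow, against 4.84, 1.62, 0.662 and 8.06 CPM in lung, with no overlap, and 14.6 CPM in the primary library. Its log2 fold change was 2.93 ± 0.77 (SE; edgeR adjusted p = 0.354, DESeq2 adjusted p = 0.00321). CSE1L, the exportin that returns importin alpha to the cytoplasm, was at 360, 845, 1061 and 661 CPM in bone marrow, against 281, 323, 118 and 344 CPM in lung (log2 fold change 1.46 ± 0.41 (SE), edgeR adjusted p = 0.372, DESeq2 adjusted p = 0.0459). XPO1, the general exporter of proteins with a leucine-rich signal, was at 29.6 to 81.4 CPM in bone marrow and 7.34 to 46.3 CPM in lung, which overlap. XPO4, an exportin of translation factor eIF5A, was at 26.7 to 66.3 CPM in bone marrow and 3.63 to 31.0 CPM in lung. RAN, which XPO5 needs to hold its cargo and which was chosen after its values were seen, averaged 4659 ± 905 CPM in bone marrow, against 5180.0 ± 511 CPM in lung.

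The wider pathway was described from 4 further lists of factors and 1 of host genes, for which the shares of all tested genes are again 49.9% higher in bone marrow, 10.2% with an unadjusted edgeR p below 0.05 and 3.38% called by DESeq2. Of 15 Microprocessor cofactors, 10 were higher in bone marrow and 5 lower, with a median log2 fold change of 0.13 that ran from 0.059 without lung replicate 3 to 0.27 without bone marrow replicate 1. In edgeR 0 passed and 3 had a p below 0.05 before adjustment; DESeq2 called DDX5 and limma voom 0. DDX5, an RNA helicase of the Microprocessor, was at 66.1, 111, 103 and 80.2 CPM in bone marrow, against 169, 197, 154 and 215 CPM in lung, with no overlap. Its log2 fold change of -1.03 ± 0.24 (SE) went against the direction of XPO5 (edgeR adjusted p = 0.326, DESeq2 adjusted p = 0.00999). NCBP1, a subunit of the nuclear cap-binding complex, averaged 103 ± 43.2 CPM in bone marrow, against 39.6 ± 15.7 CPM in lung. Of 13 loading factors and chaperones, 9 were higher and 4 lower (median 0.26, but 0.089 without bone marrow replicate 3 and 0.46 without bone marrow replicate 1), with 0 called in edgeR, DESeq2 or limma voom and 2 at an unadjusted edgeR p below 0.05. STIP1, a co-chaperone that links HSP70 and HSP90, averaged 245 ± 74.5 CPM in bone marrow, against 111 ± 63.3 CPM in lung.

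Of 21 silencing effectors, 15 were higher in bone marrow and 6 lower, with a median log2 fold change of 0.41, or 0.69 without lung replicate 4, and 0 called in edgeR. DESeq2 called PAN3 and SND1 (3.38% of its genes) and limma voom 0, and 3 had an unadjusted edgeR p below 0.05 (10.2% of tested genes). PAN3, a subunit of a deadenylase that shortens poly(A) tails, was at 271, 222, 223 and 235 CPM in bone marrow, against 132, 137, 113 and 88.1 CPM in lung, with no overlap. Its log2 fold change was 1.01 ± 0.21 (SE; edgeR adjusted p = 0.303, DESeq2 adjusted p = 0.000662). SND1, a nuclease found with the silencing complex, was at 36.9, 51.7, 39.3 and 62.5 CPM in bone marrow, against 7.47, 22.8, 4.06 and 11.2 CPM in lung, again with no overlap (log2 fold change 2.06 ± 0.56 (SE), edgeR adjusted p = 0.355, DESeq2 adjusted p = 0.0091). Of 12 tailing and turnover factors, 9 were higher in bone marrow and 3 lower (median 0.53, but 0.26 without bone marrow replicate 2 and 0.87 without lung replicate 3), with 0 called in any of the 3 tools and 0 at an unadjusted edgeR p below 0.05. PAPD4, a poly(A) polymerase that tails microRNAs, averaged 27.6 ± 9.83 CPM in bone marrow, against 14.4 ± 5.01 CPM in lung.

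**Figure D4:**
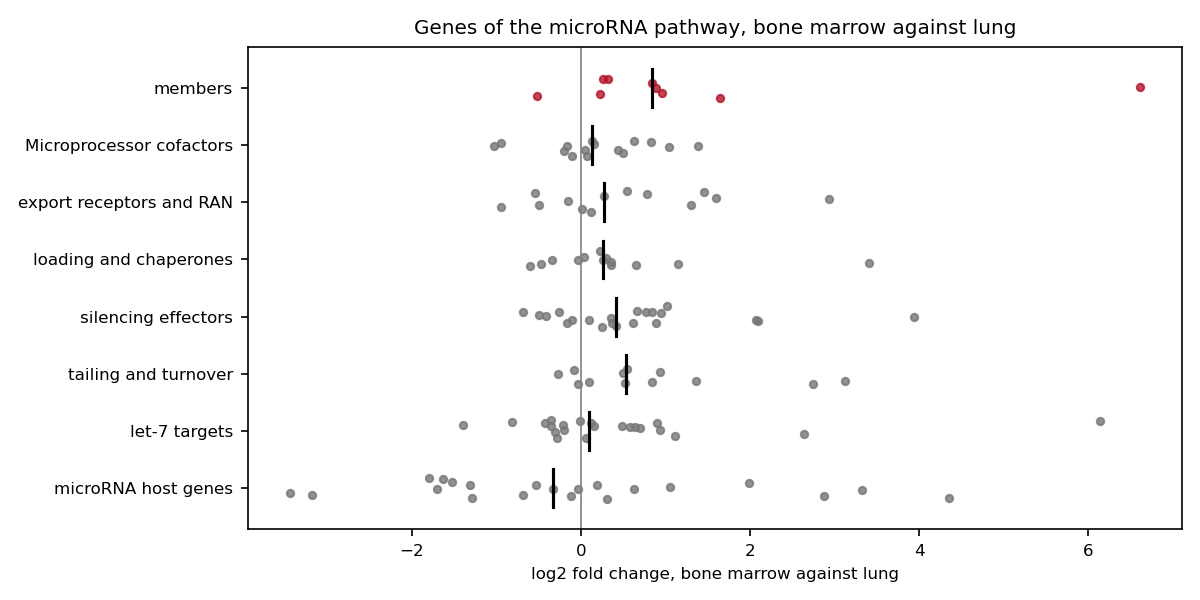
Log2 fold changes for bone marrow against lung (horizontal axis) of the members without DGCR8 and of 7 gene lists. Points are genes and vertical bars are medians; XPO5 stands alone at 6.60 among the members, and the list medians lie between -0.33 and 0.53.

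MicroRNA host genes carry a microRNA in their transcript. Of 31 in the table, 21 were tested, of which 8 were higher in bone marrow and 13 lower, with a median of -0.33. That median was -0.58 without bone marrow replicate 1 and -0.11 without lung replicate 3, and it depended on the filter, at -0.010 without one and -1.49 with 5 CPM in 4 libraries. In edgeR 0 passed, 4 had a p below 0.05 before adjustment (10.2% of tested genes), and calls numbered 3 in DESeq2 (3.38% of its genes) and 0 in limma voom. MIR663AHG was at 1.78, 3.17, 3.54 and 2.09 CPM in bone marrow, against 23.8, 23.0, 31.2 and 37.2 CPM in lung, with no overlap, and 4.45 CPM in the primary library. Its log2 fold change was -3.44 ± 0.48 (SE; edgeR adjusted p = 0.165, DESeq2 adjusted p = 3.51e-15), so its level was low where XPO5 was high. MIR210HG, which hosts a hypoxia-induced microRNA, was at 0.592, 1.34, 3.89 and 4.11 CPM in bone marrow and 0.211 to 0.414 CPM in lung. MIR22HG was at 3.11, 10.7, 0.347 and 3.13 CPM in bone marrow, and 0 to 0.414 CPM in lung. A host transcript is not a measure of its microRNA.

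The sites were also set against the primary library, which is a single library, so these fits have no replicate check on its side. Both comparisons share that library. For bone marrow against primary, 0% of tested genes passed in edgeR and DESeq2 called 0.547% of its genes. Of the 8 members other than XPO5 and DGCR8, 0 were called by edgeR, DESeq2 or limma voom. Of these 8, 0 had an unadjusted edgeR p below 0.05, as 3.81% of tested genes had (1.54% higher and 2.26% lower). The log2 fold change was positive for 5 of the 8, against 58% of tested genes. The primary library lay below all bone marrow libraries for AGO1, TARBP2 and PRKRA, or 3 of the 8, against 15.5% of tested genes. For AGO2 and AGO3 it lay above them all, which held for 19.1% of tested genes, and for 34.6% it lay on either side. The log2 fold changes of AGO1 and AGO2 were 0.86 ± 0.69 and -1.07 ± 0.56 (SE).

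In the comparison of lung with primary, 0% of tested genes passed in edgeR, DESeq2 called 1.35% of its genes and limma voom called 0.0235%. Of the 8 members other than XPO5 and DGCR8, 0 were called by any of the 3 tools. At an unadjusted edgeR p below 0.05 there was 1 of the 8, AGO2, where 6.45% of tested genes were (2.33% higher and 4.12% lower in lung). The log2 fold change was positive for 3 and negative for 5 of the 8 with a fold change, against 56.2% positive of tested genes. AGO2 averaged 54.5 ± 22.9 CPM in lung and was at 136 CPM in the primary library, a log2 fold change of -1.32 ± 0.55 (SE; edgeR adjusted p = 0.761). All 4 lung libraries were below the primary library for DROSHA, DICER1, AGO2 and AGO3, or 4 of the 8, against 21.7% of tested genes. For TARBP2 they were all above it, as for 17.9% of tested genes, and 39.6% lay wholly on either side. DICER1 averaged 22.7 ± 12.1 CPM in lung and was at 39.7 CPM in the primary library (log2 fold change -0.81 ± 0.66 (SE), edgeR adjusted p = 0.948). Members lay lower in lung than in the primary library for 10 of 13 export factors, 11 of 15 Microprocessor cofactors, 15 of 21 silencing effectors and 9 of 12 turnover factors, with medians of -0.54, -0.42, -0.46 and -0.69. The counts were 8 of 13 loading factors, 13 of 22 let-7 targets and 11 of 21 host genes, with medians of -0.08, -0.35 and -0.10. The median of all tested genes was 0.16. In edgeR 0 genes of these 7 lists passed, 2 silencing effectors, 1 let-7 target and 3 host genes had an unadjusted p below 0.05, and DESeq2 called MIR663AHG.

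**Figure D5:**
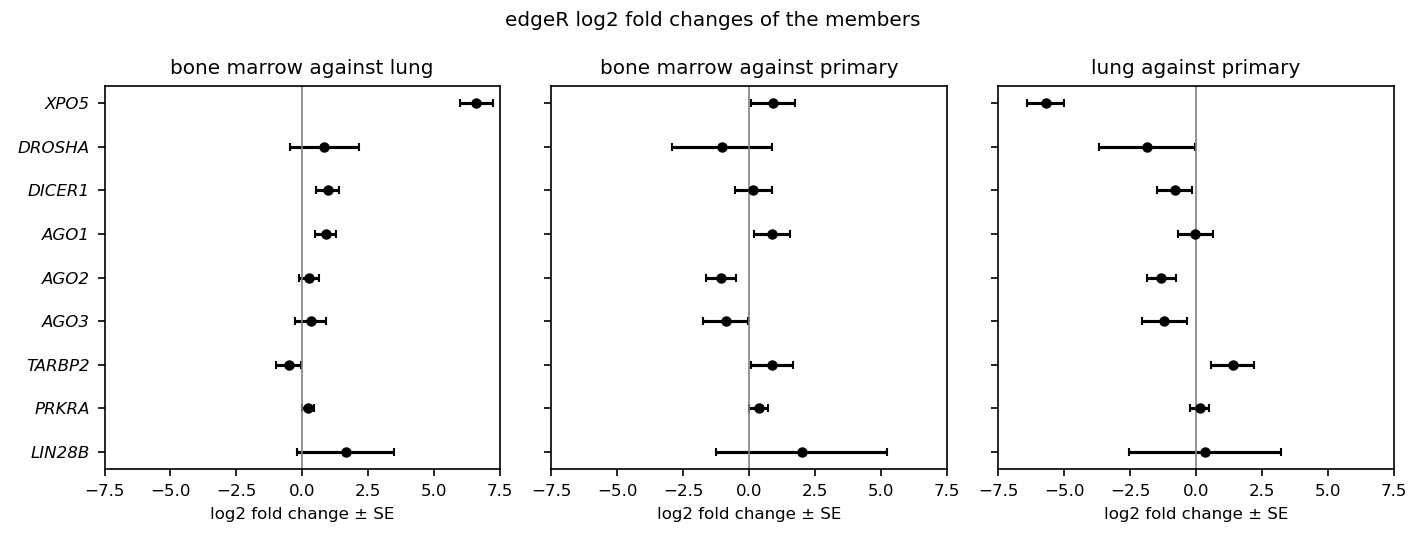
Fitted log2 fold changes (horizontal axis, points, with SE as bars) of XPO5 and 8 other members in the 3 comparisons, without DGCR8. XPO5 lies at 6.60 for bone marrow against lung and at -5.70 for lung against primary; each other member lies between -1.86 and 1.99.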

How the data were processed

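The authors deposited estimated counts per gene symbol, with fractions and not scaled to depth. Per the submitters' processing notes the tools were Trim Galore and Salmon (no versions) with build hg38. Libraries were made from low-input RNA by template switching, per the labels' protocols. A second deposited table gives the percent of reads per species and the fraction of reads per counting category. How they were made is not stated.

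Of 34934 rows, 104 name spike-in, reporter or selection sequences and were left out, at most 0.0159% of a library's counts. Counts were rounded, filtered with filterByExpr and scaled by TMM. All 9 libraries entered 1 quasi-likelihood model in edgeR 4.0.16 with 3 groups, adjusted over 17042 genes by Benjamini-Hochberg (two-sided, threshold 0.05). SE is the log2 fold change over the square root of F. The common biological coefficient of variation came to 0.925.

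The members and gene lists were chosen with earlier results of these data known. Members are named whatever their result, and neighbours and the 5 genes most like XPO5 by rule. Genes of the pathway lists are named by smallest p, up to 4 a list. RAN, HMGA2, IGF2BP1 and LIN28A did not follow this rule and were looked up after values were seen. Cell type markers did not follow it either. 1 result on a list gene is not reported here. In simulated data for bone marrow against lung, with 16202 genes passing the filter, the edgeR step called 0% of genes changed 2-fold, 64.3% of those changed 8-fold and 86.3% of those changed 32-fold. The simulation changed 57, 70 and 73 genes by these folds at once, and genes of low mean level were not changed. Many calls ease the Benjamini-Hochberg threshold, and the real comparison had 1 call. These shares can therefore overstate what would be called here, and they exclude no change in a member. Alternatives were other scalings and filters, DESeq2 1.42.0, limma 3.58.1 voom with quality weights, the 8 metastasis libraries alone, a replicate block, libraries left out and, added after seeing the data, 2 libraries left out together. Every one of 36 library pairs differed beyond counting noise, with a chi-square over its degrees of freedom of 79.9 or more.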

Additional observations from a re-analysis of the deposited data

Results flagged for a closer look

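Over 19 sets of 4 libraries, 1 for each member and site that had any spread, 2 held a library far from the other 3. LIN28B was at 26.7 CPM in lung replicate 1 and at 0.0704 to 0.291 CPM in the other 3 lung libraries; about 1 in 20 sets is flagged in this way by chance. DGCR8 was at 2.71 CPM in bone marrow replicate 3 and at 0 in the other 3 bone marrow libraries. That chance rate does not apply to DGCR8, since with 3 libraries at 0 the gap equals the whole range and the gene passed the filter through replicate 3 alone.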

How the results depend on the processing

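Over 17 alternatives the log2 fold change of XPO5 for bone marrow against lung was 6.31 to 7.18. XPO5 was chosen for this difference, so its kept direction is a description and no support. Of the 8 members other than XPO5 and DGCR8, 0 passed in any alternative. The number of genes passing for bone marrow against lung, 1 in edgeR, was 3 with a filter of 5 CPM in 4 libraries, 468 in DESeq2, 6 in limma voom and 0 with bone marrow replicate 1 and lung replicate 3 both left out; it was 0 to 0 leaving out any 1 library. For bone marrow against primary it was 0 in edgeR, 71 in DESeq2 and 0 to 1 leaving out 1 library, the 1 being without lung replicate 2. For lung against primary it was 0 in edgeR, 167 in DESeq2 and 4 in limma voom. The causes were not tested.

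The labels do not say whether replicate numbers pair the samples. Deviations of same-numbered bone marrow and lung libraries correlated at -0.0364 to 0.0260. Such values cannot exclude a shared mouse, whose effect may be small beside the spread between libraries. With the replicate block, on the 8 metastasis libraries, 0 genes passed and DROSHA was at -0.65.

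No member passed where its sign turned. For bone marrow against lung, DROSHA was at -0.41 in limma voom and -0.26 to 1.25 leaving out 1 library. Leaving out 1 library gave 0.04 to 0.45 for AGO2 and 0.09 to 1.07 for AGO3, and leaving out bone marrow replicate 1 with lung replicate 3 gave -0.051 and -0.071. In limma voom LIN28B was at -0.15 for bone marrow against primary and -2.77 for lung against primary, where leaving out 1 library gave -4.73 to 0.76. For lung against primary, AGO1 was at 0.012 with the 5 CPM filter, -0.30 to 0.16 leaving out 1 library and 0.20 leaving out both. PRKRA was at -0.061 to 0.28 leaving out 1 library and -0.016 leaving out both. Low counts limit XPO5 in lung, DGCR8, DROSHA and LIN28B.

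The medians of the gene lists for bone marrow against lung also moved by over 1.5 times under some settings. Over all alternatives they ran from 0.039 to 0.27 for Microprocessor cofactors, 0.10 to 0.56 for export factors, 0.089 to 0.46 for loading factors, 0.29 to 0.69 for silencing effectors and 0.26 to 1.04 for turnover factors. They ran from -0.16 to 0.31 for let-7 targets and from -1.49 to -0.010 for host genes, while the median of all genes stayed within -0.082 to 0.051.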
